A study of Mus musculus with 14 samples.

Results

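The metallothionein genes Mt1 and Mt2 and 5 membrane zinc and manganese carriers (Slc39a14, Slc39a4, Slc39a2, Slc30a1 and Slc30a10) were followed in mouse liver during hepatitis induced by concanavalin A (ConA). They were taken by gene symbol, and all 7 are among the 17656 genes that each of the 14 deposited expression tables lists. ConA is a plant lectin that activates T cells and, given intravenously, injures the liver. Each table holds the liver of 1 mouse on a C57BL/6 background, male and 8 weeks old, killed 8 h after an injection into the tail vein. The groups were 3 wild-type (WT) mice given saline, 3 Ythdf1-/- mice given saline, 4 WT mice given ConA at 8 mg/kg and 4 Ythdf1-/- mice given the same dose. Mice labelled Ythdf1-/-, called KO here, carry a CRISPR/Cas9 deletion of exon 3 of the gene of the m6A reader YTHDF1 in the whole body, so no liver cell type is spared, and WT mice were littermates.

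Metallothioneins are small cysteine-rich proteins that hold zinc and copper in the cell, and in the liver their genes are classic acute-phase genes, switched on by metals, glucocorticoids and interleukin-6. Zinc reaches the cytosol through ZIP importers (Slc39a genes) and leaves it through ZnT exporters (Slc30a genes). Hypozincemia, the fall of plasma zinc in inflammation, is known to involve uptake of zinc into hepatocytes by ZIP14, the product of Slc39a14, and its storage on metallothionein.

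Values are TPM, in which each gene is divided by its length and every library is scaled to a sum of 1000000, so that levels of different genes can be set side by side. TPM does not keep the number of reads, so the precision of a value from counting is unknown, and the spread between mice is the only error given. Ythdf1 itself spanned 12.03 to 13.92 TPM with saline and 18.74 to 25.63 with ConA in WT, and 18.44 to 20.77 with saline and 15.54 to 26.17 with ConA in KO. This gene-level value includes exons outside the deletion and does not check the genotype, so each genotype difference rests on the labels. WT saline replicates 2 and 3 were nearly identical, with a median log2 ratio of 0.063 in size over genes at 10 TPM or more, against 0.11 to 0.37 in the other 17 pairs within groups. Comparisons that use WT saline were repeated with the mean of this pair as 1 library. The ConA libraries numbered 3 had the fewest genes at 1 TPM or more of all ConA livers (9853 in WT and 10107 in KO, against 10212 to 10793).

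Mt2 and Mt1 are neighbours on mouse chromosome 8 (RefSeq, GRCm38.p6), at chr8:94172618-94173567 and chr8:94178883-94180327, with 5315 bases between them. Slc30a10 lies at chr1:185454848-185468762, Slc30a1 at chr1:191906697-191913248, Slc39a2 at chr14:51893082-51896745, Slc39a14 at chr14:70303467-70351452 and Slc39a4 at chr15:76612383-76618506. The start regions of the metallothionein genes and of the 2 exporters are shown because metal-responsive transcription of Mt1, Mt2 and Slc30a1 runs through MTF-1, which binds metal response elements. Each window of 300 bases begins 250 bases before the annotated start and is written 5′ to 3′ on the plus strand of GRCm38.p6 (RefSeq), and capitals mark the core of that element, TGCACNC or TGCGCNC, on either strand.
Mt1 (chr8:94178839-94179138): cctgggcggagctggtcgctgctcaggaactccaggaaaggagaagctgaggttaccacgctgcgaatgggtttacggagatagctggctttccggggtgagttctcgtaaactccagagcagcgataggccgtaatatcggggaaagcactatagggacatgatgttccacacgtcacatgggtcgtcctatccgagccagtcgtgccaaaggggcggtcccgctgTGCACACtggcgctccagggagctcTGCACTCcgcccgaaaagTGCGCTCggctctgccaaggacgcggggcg
Mt2 (chr8:94172368-94172667): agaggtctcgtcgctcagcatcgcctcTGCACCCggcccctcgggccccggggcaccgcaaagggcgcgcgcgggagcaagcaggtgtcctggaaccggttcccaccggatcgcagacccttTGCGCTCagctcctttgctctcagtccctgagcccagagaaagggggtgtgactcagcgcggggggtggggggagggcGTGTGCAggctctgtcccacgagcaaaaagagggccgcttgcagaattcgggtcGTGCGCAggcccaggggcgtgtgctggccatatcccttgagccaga
Slc30a1 (chr1:191906531-191906830): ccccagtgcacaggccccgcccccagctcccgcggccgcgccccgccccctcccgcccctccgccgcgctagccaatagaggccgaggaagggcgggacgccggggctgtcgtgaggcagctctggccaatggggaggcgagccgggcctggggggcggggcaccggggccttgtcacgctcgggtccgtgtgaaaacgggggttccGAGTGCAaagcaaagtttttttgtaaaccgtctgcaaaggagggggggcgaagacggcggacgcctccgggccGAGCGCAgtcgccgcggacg
Slc30a10 (chr1:185454598-185454897): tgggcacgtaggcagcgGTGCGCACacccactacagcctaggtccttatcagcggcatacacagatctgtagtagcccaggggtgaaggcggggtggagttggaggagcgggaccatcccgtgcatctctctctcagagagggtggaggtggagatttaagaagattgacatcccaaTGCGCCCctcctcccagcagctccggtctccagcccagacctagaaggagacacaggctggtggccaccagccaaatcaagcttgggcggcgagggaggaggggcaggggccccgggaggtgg
The core was present 4 times in the Mt2 window, 3 times in those of Mt1 and Slc30a10 and 2 times in that of Slc30a1, and the matches at -233 and -232 of Slc30a10 overlap. Of all 32851 promoter windows in the same table, 25.7% held the core at least 1 time, 7.11% at least 2 times, 1.97% at least 3 times and 0.517% at least 4 times. Counted from the annotated start as base 0, the matches began at -23, 2 and 20 in Mt1 and at -223, -128, -50 and 4 in Mt2. The annotated start used for Mt1 lies 206 bases inside the gene record, and that for Slc30a1 84 bases inside it, so these windows may miss sequence around other starts. The window of Slc39a2 held no match, and those of Slc39a14 and Slc39a4 were not analysed here. The STAT motif TTCNNNGAA was in none of the 5 windows searched and in 8.30% of all windows. The TATA box TATAAA (13.6% of all windows) and the E-box CACGTG (7.15%) were also in none of the 5. The antioxidant element core TGACNNNGC occurred 1 time each in Mt2 and Slc30a1 (12.4% of all windows hold it), and the glucocorticoid element core ACANNNTGT 1 time in Mt1 (6.85%). A match describes these letters and is not evidence that a factor bound there.

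Both metallothionein coding sequences are printed because they are close enough to raise the question whether reads of 50 bases can tell the genes apart. Capitals mark the bases at which they differ (GENCODE vM21 transcripts).
Mt1 coding sequence: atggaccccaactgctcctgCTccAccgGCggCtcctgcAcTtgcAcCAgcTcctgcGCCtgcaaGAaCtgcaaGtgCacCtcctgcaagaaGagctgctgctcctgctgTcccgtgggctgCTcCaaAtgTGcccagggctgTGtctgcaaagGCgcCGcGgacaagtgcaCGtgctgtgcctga
Mt2 coding sequence: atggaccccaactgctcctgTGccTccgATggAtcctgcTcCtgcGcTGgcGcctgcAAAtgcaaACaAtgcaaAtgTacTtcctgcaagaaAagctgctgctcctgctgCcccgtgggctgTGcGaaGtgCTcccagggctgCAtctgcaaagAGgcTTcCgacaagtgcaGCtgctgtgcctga
Each has 186 bases including the stop codon, 61 codons before it and 20 cysteine codons, and 38 bases differ, an identity of 79.6%. No stretch of 50 bases of the Mt1 or Mt2 transcript occurred in another gene on the same strand. With both strands counted, 54.5% of the Mt2 stretches, 91.9% of those of Slc30a1 and 91.6% of those of Slc30a10 were found in no other gene, and the rest were shared with an antisense gene (Gm45774, 1700034H15Rik and Gm2061). None of these 3 genes is in the tables, and whether the authors' counting used the strand is not given in the sources used here.

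ConA moved most of these genes in WT liver. Of the 7, 4 rose (Mt1, Mt2, Slc39a14 and Slc30a10), against 22.0% of all 10768 genes tested, and 1 fell (Slc39a2), against 31.0%. In KO liver, 5 of the 6 that passed the filter on low values rose (Mt1, Mt2, Slc39a14, Slc30a1 and Slc30a10), against 33.9% of 10988 genes, and 1 fell (Slc39a4), against 30.7%. A gene was tested with limma on log2(TPM + 1) where enough libraries reached 1 TPM. It was called where the p, adjusted over all genes tested, was under 0.05. In WT, Slc39a2 reached 1 TPM in saline livers only, so its call is no evidence beyond its levels. The plot of every library shows these levels, and the plot of fitted differences sets the 5 comparisons side by side. These comparisons share groups (each saline and each ConA group enters 3 of them), so they are not independent of each other.

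**Figure D1:**
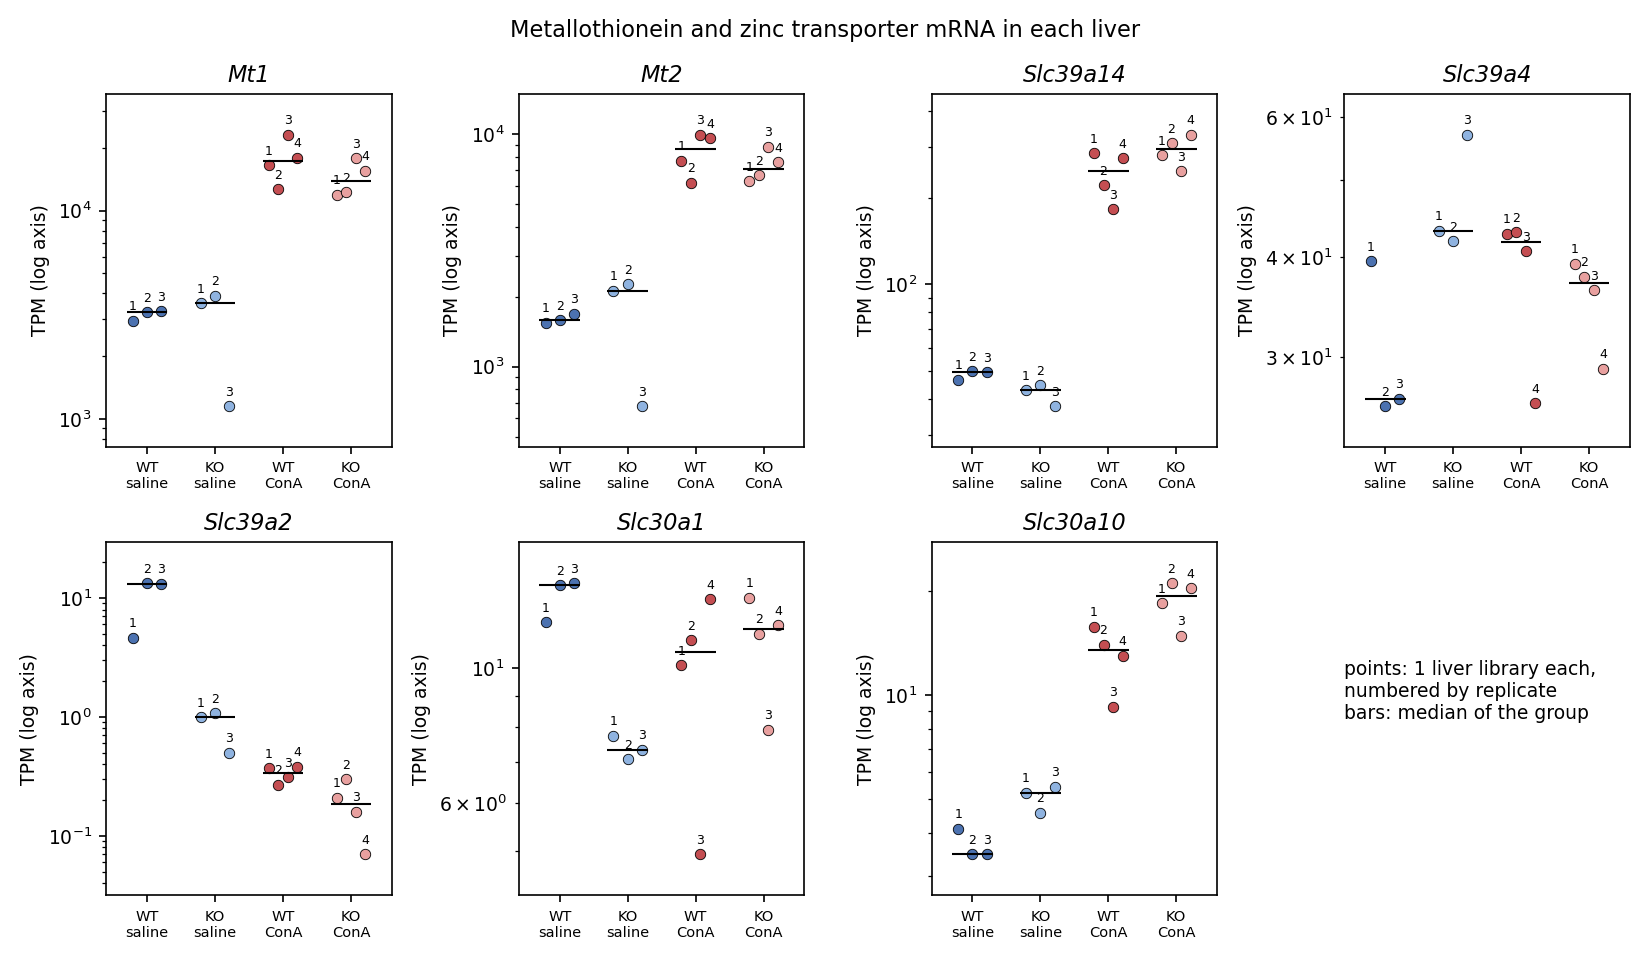
TPM of the 7 genes (log axes, 1 panel each) in the 14 livers, grouped by genotype and treatment, with each point numbered by replicate and a bar at the group median. Mt1, Mt2, Slc39a14 and Slc30a10 are higher in every ConA liver than in every saline liver, Slc39a2 is lower in every ConA liver than in any saline liver, and KO saline replicate 3 lies lowest for Mt1 and Mt2.

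Mt1 had 2954, 3254 and 3288 TPM in the WT saline livers and 16526, 12694, 23178 and 17982 TPM in the WT ConA livers. KO saline livers had 3599, 3896 and 1152 TPM, and KO ConA livers 11907, 12301, 17920 and 15552 TPM. Every ConA liver was above every saline liver, and the third KO saline liver stood apart at the bottom. The mean TPM was 5.56-fold higher with ConA in WT and 5.0-fold higher in KO, which made Mt1 the gene with rank 9 among 17656 in WT ConA liver, up from rank 43 in WT saline. On the log2 scale the rise was 2.44 ± 0.19 (SE, n = 4 and 3, adjusted p = 1.01e-05) in WT and 2.49 ± 0.37 (adjusted p = 1.36e-04) in KO. Without KO saline replicate 3, the rise in KO was 1.92 (adjusted p = 5.27e-05).

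Mt2 moved with Mt1 at a lower level. WT livers held 1544, 1582 and 1691 TPM of it with saline and 7689, 6191, 9938 and 9595 TPM with ConA. KO livers held 2123, 2262 and 678 TPM with saline and 6261, 6638, 8825 and 7580 TPM with ConA. The same KO saline liver was low, and again no ConA liver overlapped a saline liver. Mt2 rose by 2.35 ± 0.17 (adjusted p = 7.55e-06) in WT and by 2.29 ± 0.35 (adjusted p = 1.97e-04) in KO on the log2 scale, a 5.20-fold and a 4.34-fold higher mean TPM. Without KO saline replicate 3, the latter log2 rise was 1.73 (adjusted p = 3.72e-05). The ratio of Mt1 to Mt2 stayed between 1.70 and 2.33 in all 14 livers. With saline it was 1.70 to 1.72 in KO and 1.91 to 2.06 in WT, without overlap, and with ConA 1.85 to 2.05 in KO and 1.87 to 2.33 in WT, with overlap. WT saline replicates 2 and 3 are the nearly identical libraries, and how often ratios of other genes separate was not counted. The separation with saline is therefore no evidence of a genotype difference.

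Together the 2 metallothionein genes took 0.450% to 0.498% of all TPM in WT mice given saline and 1.89% to 3.31% in those given ConA. The share in KO mice was 0.183% to 0.616% and 1.82% to 2.67%, in the same order. The highest shares within each ConA group were those of the replicates numbered 3, which also had the fewest genes at 1 TPM or more. The part of that in the metallothionein levels was not tested. As the values are from whole liver, fewer cells of a type and less RNA per cell cannot be told apart.

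**Figure D2:**
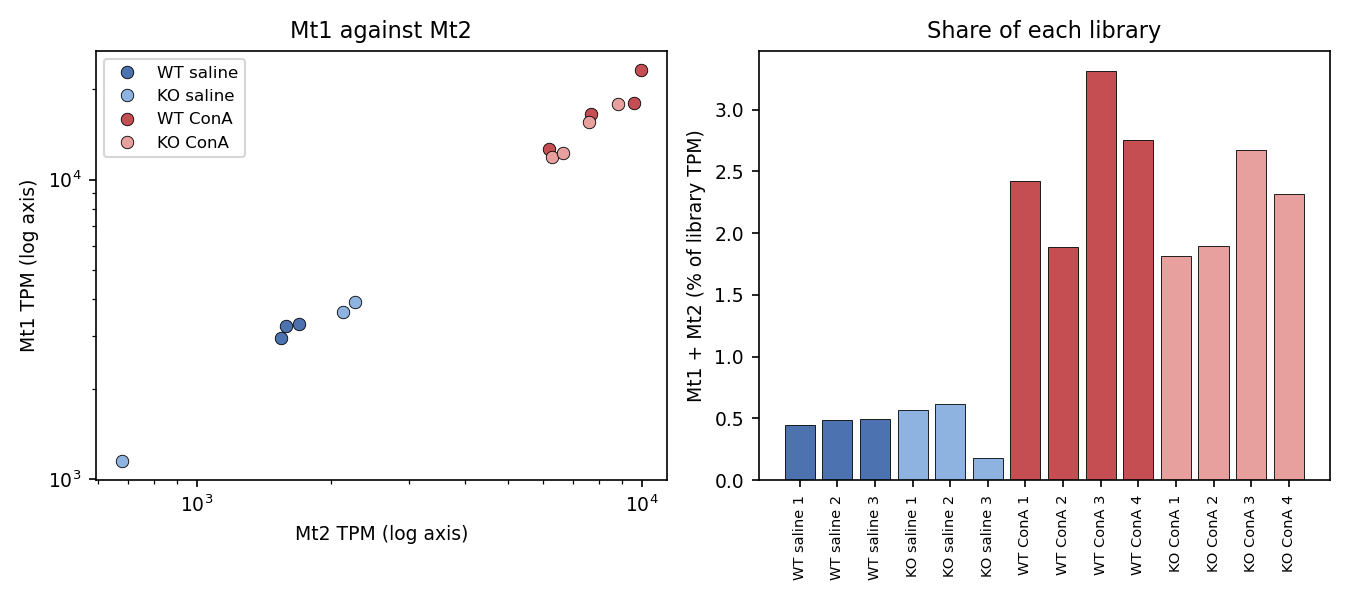
Left, Mt1 TPM against Mt2 TPM (log axes), 1 point per liver; right, the summed share of Mt1 and Mt2 in the TPM of each library, in percent. The points keep to a narrow band, with a ratio of 1.70 to 2.33, and the share runs from 0.183% in KO saline replicate 3 to 3.31% in WT ConA replicate 3.

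Mt3 and Mt4, the metallothioneins known from brain and from stratified epithelia, were listed at 0 in all 6 saline livers. With ConA, Mt3 reached 0.95 to 2.15 TPM in WT livers and in KO livers 0.65 to 2.49 TPM. It passed the filter only through the ConA livers, with 3 libraries at 1 TPM or more in each genotype, and was not tested without both ConA libraries numbered 3, so its calls are no evidence beyond these levels. Mt4 stayed at 1.82 TPM or below in every ConA liver and did not pass the filter. Mtf1, which encodes the metal-sensing factor MTF-1, had a log2 fold change of 0.31 in WT (adjusted p = 0.154) and rose by 0.48 in KO (adjusted p = 0.0354). Counting Mt3, 1 gene of this list of 3 rose in WT (2 after rescaling the libraries) and 2 in KO (1 without KO saline replicate 3).

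Among the importers followed here, Slc39a14, which carries zinc, manganese and iron not bound to transferrin into hepatocytes, showed the clearest rise. With saline it had 46.5, 49.9 and 49.5 TPM in WT and 42.8, 44.5 and 37.8 TPM in KO livers. With ConA it had 287, 221, 183 and 275 TPM in WT and 281, 310, 247 and 332 TPM in KO livers. No ConA liver came near a saline liver, and the lowest of each ConA group was the replicate numbered 3. The log2 rise was 2.27 ± 0.17 (adjusted p = 7.36e-06) in WT and 2.78 ± 0.13 (adjusted p = 3.56e-08) in KO, and the mean TPM was 4.97-fold and 7.02-fold higher. The difference between these rises was 0.51 with a 95% interval of 0.06 to 0.96, and it did not pass the test after adjustment over all genes (adjusted p = 0.152).

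Slc39a4 encodes ZIP4, the zinc importer of the intestine that is mutated in acrodermatitis enteropathica. Its levels were 39.5, 26.1 and 26.6 TPM in WT saline and 42.9, 43.0, 40.7 and 26.3 TPM in WT ConA livers, so that the groups overlapped (log2 fold change 0.30, adjusted p = 0.264). KO saline livers had 43.2, 41.9 and 57.0 TPM and KO ConA livers 39.3, 37.9, 36.4 and 29.0 TPM. These KO groups did not overlap, and Slc39a4 fell by 0.40 ± 0.15 on the log2 scale (adjusted p = 0.0398). That call was lost without KO saline replicate 3 (-0.26, adjusted p = 0.167), without KO ConA replicate 4 (-0.30, adjusted p = 0.112), without KO saline replicate 1 (adjusted p = 0.0516), without KO ConA replicate 2 (adjusted p = 0.0518), with no filter (adjusted p = 0.0564) and with all 14 libraries in the fit (adjusted p = 0.0871). Of the enterocyte markers, Lct and Alpi were at 0.03 TPM or below and Vil1 was at 0.21 TPM or below in all livers, while Fabp2 had 32.7 to 106 TPM and Apoa4, which liver also expresses, 216 to 1755 TPM. The part of other cells in the Slc39a4 level was not tested.

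Slc39a2, which encodes the plasma membrane importer ZIP2, moved the other way and furthest. WT saline livers had 4.64, 13.4 and 13.2 TPM and WT ConA livers 0.37, 0.27, 0.31 and 0.38 TPM. The mean fell from 10.4 ± 5.0 TPM to 0.333 ± 0.0519 TPM (SD), a 31.3-fold lower level, and the fitted change was -2.98 ± 0.30 (adjusted p = 4.41e-05). With a pseudocount of 1 this understates the change of so low a gene. Only the WT saline livers took Slc39a2 over the filter of 1 TPM, so this call is no evidence beyond these levels. The first WT saline liver was well below the other 2 and still above every ConA liver.

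In KO liver Slc39a2 was low already with saline, at 1.0, 1.08 and 0.50 TPM, and it had 0.21, 0.30, 0.16 and 0.07 TPM with ConA. The groups did not overlap and the mean was 4.65-fold lower, but too few libraries reached 1 TPM for the fit. The exact two-sided permutation test gave p = 0.0571 (difference of -0.64 in log2(TPM + 1)), which is the smallest p that 4 against 3 livers allow, so this design cannot pass 0.05. Fitted with no filter, the adjusted p was 0.00288.

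Of the exporters, Slc30a1 (ZnT1, which moves zinc out across the plasma membrane) did not follow the metallothioneins. It had 11.9, 13.7 and 13.8 TPM in WT saline and 10.1, 11.1, 4.94 and 13.0 TPM in WT ConA livers, with overlap and a log2 fold change of -0.46 (95% interval -1.06 to 0.15, adjusted p = 0.183). KO saline livers had 7.75, 7.08 and 7.34 TPM and KO ConA livers 13.1, 11.4, 7.92 and 11.8 TPM. There the ConA livers were all higher, and Slc30a1 rose by 0.50 ± 0.17 (adjusted p = 0.0261). This call was lost when all 14 libraries were fitted (adjusted p = 0.0753) and without any of KO saline replicates 1, 2 and 3 or KO ConA replicates 1, 2 and 4 (adjusted p of 0.0556 to 0.0849).

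Slc30a10 (ZnT10, a manganese exporter of liver and intestine) rose in both genotypes. WT mice had 4.11, 3.47 and 3.47 TPM with saline and 15.76, 13.97, 9.26 and 12.99 TPM with ConA. KO mice had 5.22, 4.57 and 5.44 TPM with saline and 18.45, 21.08, 14.85 and 20.33 TPM with ConA. ConA and saline livers did not overlap, and the replicate numbered 3 was again the lowest of each ConA group. The log2 rise was 1.56 ± 0.18 (adjusted p = 1.07e-04) in WT and 1.69 ± 0.16 (adjusted p = 4.88e-06) in KO, with a 3.53-fold and a 3.68-fold higher mean TPM. Leaving out both ConA libraries numbered 3 changed no call of these 7 genes against saline in either genotype.

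The levels changed order with ConA. In WT saline liver the means ran from Mt1 (3165 TPM) and Mt2 (1606) over Slc39a14 (48.6), Slc39a4 (30.7), Slc30a1 (13.1) and Slc39a2 (10.4) to Slc30a10 (3.68), and among neighbours Slc30a1 and Slc39a2 overlapped. In WT ConA liver they were Mt1 (17595), Mt2 (8354), Slc39a14 (241), Slc39a4 (38.2), Slc30a10 (13.0), Slc30a1 (9.80) and Slc39a2 (0.333), with overlap between Slc30a10 and Slc30a1. KO saline liver had Mt1 (2882), Mt2 (1687), Slc39a4 (47.4), Slc39a14 (41.7), Slc30a1 (7.39), Slc30a10 (5.08) and Slc39a2 (0.860). Mt1 overlapped with Mt2 there through replicate 3, and Slc39a4 with Slc39a14 through replicates 1 and 2. In KO ConA liver the order was that of WT ConA liver, at 14420, 7326, 293, 35.7, 18.7, 11.04 and 0.185 TPM, and no neighbours overlapped.

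**Figure D3:**
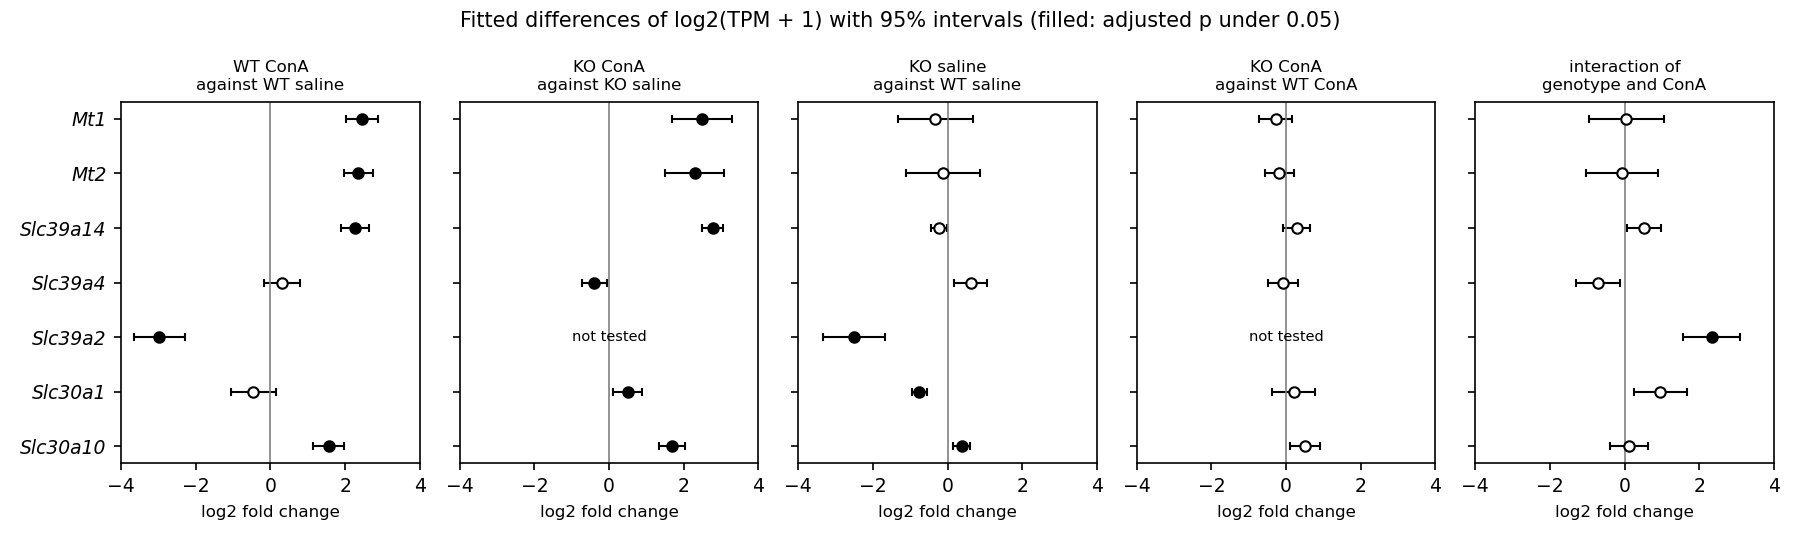
Fitted log2 differences of the 7 genes (points) with 95% intervals in the 5 comparisons, filled where the adjusted p is under 0.05. Mt1, Mt2, Slc39a14 and Slc30a10 lie between 1.56 and 2.78 in both ConA comparisons, no gene is filled in KO ConA against WT ConA, and Slc39a2 is the only filled point of the interaction.

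Without ConA, the genotypes differed for 3 of the 7 genes in the fit. Slc30a10 was higher in KO saline livers (log2 0.38, adjusted p = 0.0424), against 6.30% of 10459 genes tested, and Slc39a2 and Slc30a1 were lower, against 12.9%. Slc39a2 was lower by 2.51 ± 0.35 on the log2 scale (adjusted p = 0.0121). Its means were 0.860 ± 0.314 and 10.4 ± 5.0 TPM (SD, n = 3 each), a 12.1-fold difference. It passed the filter through the WT saline livers, where it was high, so its call is no evidence beyond these levels. Slc30a1 was lower by 0.75 ± 0.09 (adjusted p = 0.00743), a 1.78-fold lower mean. None of the 3 genes overlapped between the genotypes, but the share of all genes without overlap was not counted, so this adds no support to the calls. The calls rest on the nearly identical WT saline libraries: with these averaged into 1, 0 of the 7 genes were called. The same held for most genes, as 49 of 10675 (0.459%) were called then, against 2009 of 10459 in the main fit. The adjusted p with the pair averaged was 0.0711 for Slc39a2 (log2 -2.29), 0.0651 for Slc30a1 (-0.72) and 0.151 for Slc30a10 (0.34).

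Slc39a4 was higher in every KO saline liver than in any WT saline liver but missed the threshold (log2 0.62, adjusted p = 0.0548), and Slc39a14 was lower in each (-0.22, adjusted p = 0.118). Mt1 and Mt2 had wide intervals, of -1.32 to 0.67 and -1.10 to 0.87, with KO saline replicate 3 far below the other 5 saline livers. Without that liver Mt2 was called higher in KO (log2 0.45, adjusted p = 0.0200), and Mt1 was 0.24 higher (adjusted p = 0.105), so both signs turned. Markers of other liver cells also differed between these groups, in which 6.30% of all genes tested were called higher and 12.9% lower. The summed TPM of 6 cholangiocyte markers was 83.8 to 89.5 in KO saline and 46.6 to 57.0 in WT saline livers, with 2 of 4 tested markers called higher. For 6 stellate cell markers it was 61.2 to 104 against 16.6 to 67.2, with 2 of 6 called higher, and for 6 endothelial markers 23.6 to 41.0 against 14.1 to 22.6, with 3 of 5. The sum of 6 Kupffer cell markers went the other way, at 25.3 to 56.1 TPM in KO and 59.8 to 105 TPM in WT, with 0 of 6 called, and that of the 5 T cell markers in the tables was 1.67 to 2.36 against 0.79 to 1.25 TPM, with none tested. No tested marker of these lists was called lower, no defining one was at 0 in a whole group, and their part in the transporter levels was not tested.

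After ConA, none of the 6 genes tested was called between KO and WT livers, against 0.342% of 10519 genes called higher and 0.0856% called lower. Unadjusted, 1 of them (Slc30a10) had a p under 0.05, and with a robust fit, all 14 libraries or no filter the count also was 0. Slc30a10 was 1.44-fold higher in KO ConA livers (log2 0.50, 95% interval 0.10 to 0.91, adjusted p = 0.207), with overlap only through KO replicate 3 and WT replicate 1. Slc39a14 had a log2 difference of 0.29 (-0.07 to 0.65, adjusted p = 0.415). Mt1 and Mt2 were at -0.27 (-0.72 to 0.17) and -0.18 (-0.57 to 0.22). Slc39a2, below the filter, had a mean of 0.185 TPM against 0.333 TPM, and the exact two-sided permutation test gave p = 0.0571, where 4 against 4 livers can reach 0.0286.

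The test of whether the ConA response differed by genotype called 1 of the 7 genes, against 2.64% of 11327 genes called with a higher and 2.14% with a lower value in KO. Slc39a2 had an interaction of 2.34 ± 0.36 (adjusted p = 0.00899). It was 31.3-fold lower with ConA in WT and 4.65-fold lower in KO, from a level that was lower at the start. It passed the filter only through saline livers, and every ConA liver was at 0.38 TPM or below. The interaction thus mostly restates the saline difference (-2.51) with its sign turned. With WT saline replicates 2 and 3 averaged, the interaction was 2.11 (adjusted p = 0.0359), and with a pseudocount of 0.1 it was 2.70 (adjusted p = 0.0297). The median interaction of all genes was 0.14, and 0.029 after rescaling the libraries by their median ratio, where Slc39a2 had 2.26 (adjusted p = 0.0163). Slc30a1 had an interaction of 0.96 (95% interval 0.24 to 1.67, adjusted p = 0.101) and Slc39a4 one of -0.70 (-1.29 to -0.11, adjusted p = 0.134). Without both ConA libraries numbered 3, Slc30a1 was called as well (0.83, adjusted p = 0.00884), and without WT ConA replicate 4 Slc39a4 was (-0.87, adjusted p = 0.0450). Calls over all genes also rose, to 1591 of 11270 (14.1%) and 766 of 11294 (6.78%), from 541 of 11327.

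The rest of the zinc transporter families gives the setting. For this and the lists and markers below, the shares over all genes tested with ConA apply. In WT 22.0% rose and 31.0% fell, and in KO 33.9% rose and 30.7% fell. Of the other 11 ZIP genes, 9 were tested in WT, of which 5 rose with ConA and 1 fell, with a median log2 fold change of 0.56 against -0.072 over all genes. The count of higher genes was 4 with WT saline replicates 2 and 3 averaged and 4 without both ConA libraries numbered 3. In KO 10 were tested, of which 4 rose and 1 fell (median 0.28 against 0.069). On the log2(TPM + 1) scale, Slc39a10 (1.40 in WT and 1.70 in KO) and Slc39a7 (1.36 and 1.66) were among the largest rises. So were Slc39a6 (1.29 and 1.54) and Slc39a1 (0.95 and 1.73). Slc39a7 releases zinc from the endoplasmic reticulum. Slc39a10 and Slc39a6 were at 0.82 TPM or below in every saline liver, where a pseudocount of 1 shrinks the change. Both passed the filter only through the ConA livers. Their calls, which are part of the counts of ZIP genes that rose, are therefore no evidence beyond their levels. Slc39a11, named here after its values were seen, fell in both (-0.93 and -0.68), and Slc39a13 rose in WT alone in these tests (0.56 against -0.089). That difference, an interaction of -0.65, did not pass the test (adjusted p = 0.139).

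Of the other 8 ZnT genes, 5 were tested in each genotype, and 2 rose in WT and 4 in KO, while none fell. Slc30a5 and Slc30a7, which load zinc into the secretory pathway, rose in WT by 1.42 and 1.04 and in KO by 1.62 and 1.53. In KO Slc30a4 (0.83) and Slc30a6 (0.41) rose too. The medians were 0.22 in WT and 0.83 in KO. Slc39a8, the importer closest in sequence to Slc39a14, had 0.85-fold the saline mean in WT ConA and 1.20-fold in KO ConA livers and was not called (adjusted p = 0.418 and 0.237). In the saline comparison 1 of 8 tested ZIP genes was called (Slc39a1, lower in KO by 0.43, adjusted p = 0.0377) and 0 of 5 ZnT genes. Over all genes, 12.9% were called lower and 6.30% higher. With WT saline replicates 2 and 3 averaged, or after rescaling, the ZIP count was 0. Without KO saline replicate 3, 3 ZIP and 2 ZnT genes were lower, in a fit that called 2049 of all 10586 genes lower. Slc39a1 was also the ZIP gene whose ConA response differed by genotype (interaction 0.78, adjusted p = 0.0457), a call lost with the pair averaged. Between KO ConA and WT ConA livers 0 of 9 and 0 of 5 were called.

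**Figure D4:**
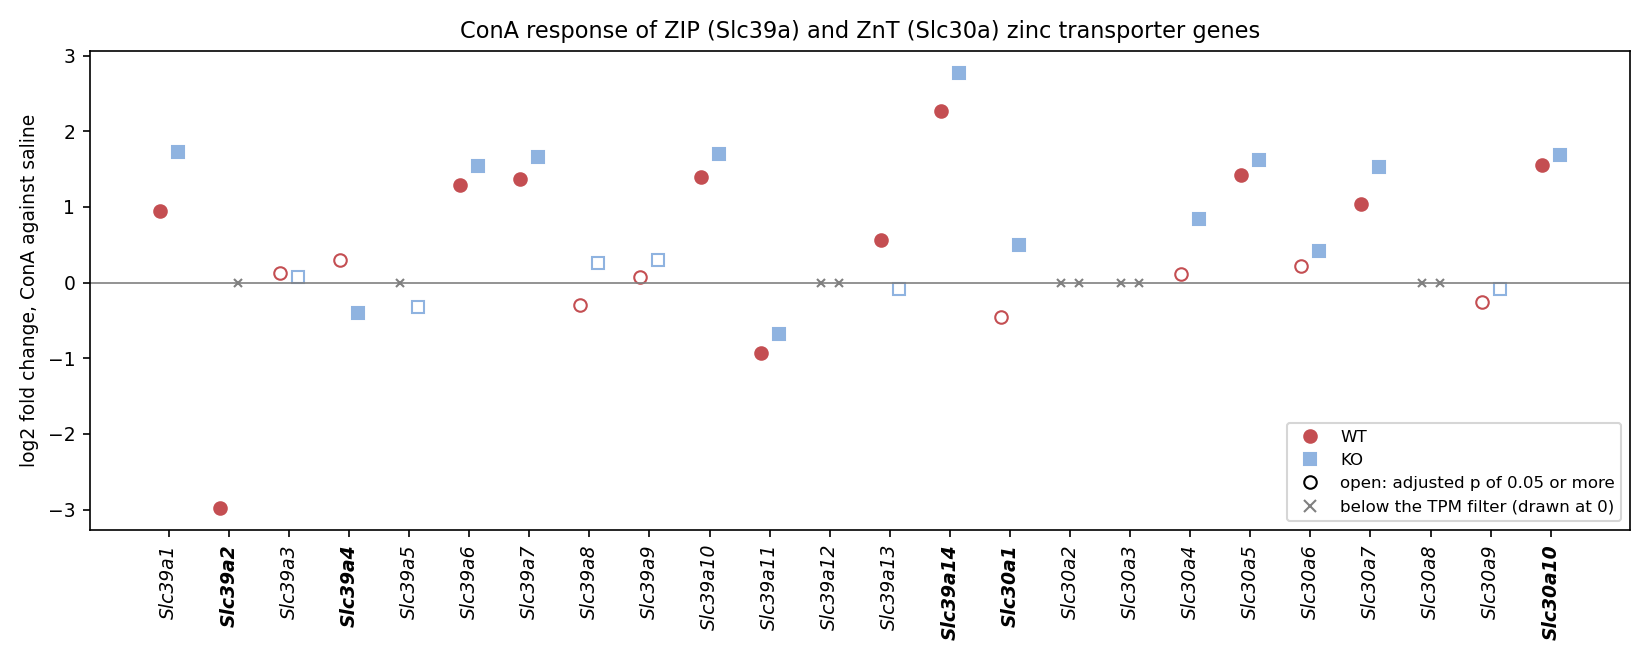
Log2 fold change of ConA against saline for all ZIP (Slc39a) and ZnT (Slc30a) genes in WT (circles) and KO (squares), filled where the adjusted p is under 0.05, with the 5 genes followed here in bold and crosses at 0 for genes below the TPM filter. On this log2(TPM + 1) scale Slc39a14 is the highest in each genotype, at 2.27 and 2.78, and Slc39a2 in WT the lowest, at -2.98. The pseudocount of 1 shrinks changes of genes with low levels. Slc39a10 and Slc39a6 passed the filter only through ConA livers, and Slc39a2 in WT only through saline livers. Their filled points are no evidence beyond the levels. Mean TPM in WT rose 5.87-fold for Slc39a10, 5.19-fold for Slc39a6 and 4.97-fold for Slc39a14. In KO these folds were 6.96, 6.32 and 7.02.

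Other carriers and buffers of metals moved in both directions, as genes did in general. Of all genes tested, 22.0% rose and 31.0% fell in WT, and 33.9% rose and 30.7% fell in KO. Of 7 manganese and divalent metal carriers, 2 rose and 1 fell in each genotype. Slc11a2, the iron and manganese importer DMT1, rose by 2.86 in WT and 2.81 in KO, Slc40a1, the iron exporter ferroportin, fell by 2.64 and 2.60, and Tmem165, a manganese carrier of the Golgi, rose by 1.24 and 1.23. Of 15 copper genes, 3 rose and 5 fell in WT, and 3 rose and 7 fell in KO. The WT counts were near the shares over all genes and are no result about this list. Steap4, a metalloreductase, rose by 5.59 and 6.89, Cp, which encodes ceruloplasmin, by 1.21 and 1.60, and Ccs, the copper chaperone of superoxide dismutase, fell by 1.23 and 1.89. The list medians were near 0 in both genotypes (-0.084 and -0.099), and in WT the sign turned after rescaling (0.011). The interaction was called for Sco2 (-1.38, adjusted p = 0.00395) and Cox17 (-0.79, adjusted p = 0.0280). The call of Cox17 was lost after rescaling and with WT saline replicates 2 and 3 averaged, and that of Sco2 was not. Mean Sco2 was 26.6 TPM in WT and 74.0 TPM in KO with saline, and 12.8 and 13.2 TPM with ConA. Cox17 had 135 and 209 TPM with saline, and 137 and 122 TPM with ConA. Both interactions thus mostly restate saline differences with the sign turned. With saline, 3 of 14 tested copper genes were called higher in KO and 1 lower, against 6.30% and 12.9% of all genes.

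The inducers known for metallothionein and Slc39a14 were looked at through their own genes. Of 10 genes of the interleukin-6 receptor and STAT3 pathway, 4 rose and 1 fell in WT (median log2 0.46). In KO 8 rose and 1 fell (median 1.26). Over all genes tested, 22.0% rose and 31.0% fell in WT, and 33.9% rose and 30.7% fell in KO. The WT count of higher genes was 7 without both ConA libraries numbered 3, 6 after rescaling and 3 with WT saline replicates 2 and 3 averaged. Socs3, the feedback inhibitor of this pathway, rose by 3.31 in WT and 4.38 in KO, Stat3 by 1.81 and 2.70 and Bcl3 by 2.81 and 2.48. The interaction was called for Stat3 (0.89, adjusted p = 0.0314) and for no other gene of the list, and 0 genes of it were called with WT saline replicates 2 and 3 averaged, 2 after rescaling and 4 without both ConA libraries numbered 3. In KO against WT saline livers 3 of the 10 genes were lower, against 12.9% of all genes tested. They were Il6ra (-1.13, adjusted p = 0.00891), Stat3 (-0.47, adjusted p = 0.0192) and Socs3 (-0.42, adjusted p = 0.0420). With WT saline replicates 2 and 3 averaged, 0 of them were called, beside 0.459% of all genes.

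Genes of the glucocorticoid receptor and its targets were split, with 5 higher and 4 lower of 12 in WT and 5 higher and 3 lower in KO. The shares over all genes were 22.0% higher and 31.0% lower in WT, and 33.9% and 30.7% in KO. Cebpd rose by 2.85 and 2.54, whereas Tsc22d3, which encodes GILZ, fell by 1.41 and 2.24 and the receptor cochaperone gene Fkbp4 by 1.90 and 2.57. Fkbp5, Per1, Zbtb16 and Tat, named here after their values were seen, had higher means with ConA in both genotypes without overlap, by 1.47-fold to 5.12-fold. Hsd11b1, named in the same way, was 2.07-fold lower in WT and 2.61-fold lower in KO. The list median in WT was -0.10 and turned to 0.20 without both ConA libraries numbered 3. Dusp1 had an interaction of 1.77 (adjusted p = 0.0258), a call lost with WT saline replicates 2 and 3 averaged. Its mean was 65.6 TPM in WT and 26.2 TPM in KO with saline, and 27.5 and 36.1 TPM with ConA. Of 13 genes of superoxide and thiol defence, 3 rose and 7 fell in WT and 4 rose and 6 fell in KO. Hmox1, which encodes heme oxygenase 1, rose by 4.44 and 5.29, while Cat, the catalase gene, fell by 2.05 and 2.24, Gclm, for a subunit of the enzyme that starts glutathione synthesis, by 1.79 and 2.08, and Nqo1 by 1.74 and 1.85.

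Markers of cell types changed with ConA beside these genes. The tissue is liver by its markers: 5 hepatocyte genes (Alb, Ttr, Apoa1, Cps1 and Ass1) summed to 106244 to 127226 TPM in WT mice given saline and to 101775 to 121949 TPM in KO mice given saline. After ConA WT livers summed to 54927 to 78184 TPM and KO livers to 48748 to 61306 TPM, and all 5 were called lower in both genotypes. The summed level of 6 neutrophil markers went from 9.54 to 11 TPM to 315 to 554 TPM in WT and from 5.27 to 10.7 to 410 to 944 TPM in KO, with 5 of 6 called higher in each. Most of each ConA sum was S100a8 and S100a9. Ly6g did not rise, at 0.57 to 5.04 TPM with saline and 0.18 to 1.64 TPM with ConA in WT. In KO it had 1.61 to 2.31 TPM and 1.15 to 2.47 TPM. The 6 Kupffer cell markers went from 59.8 to 105 TPM to 4.74 to 28.4 TPM in WT (5 of 6 called lower) and from 25.3 to 56.1 to 5.07 to 20.2 TPM in KO (3 of 6). T cell markers stayed at 4.29 TPM or below in sum, and exocrine pancreas markers at 4.99 TPM or below. The part of these shifts in the metallothionein and transporter levels was not tested.

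Over the 14 livers, the gene most like Mt1 was Mt2, and the reverse. Likeness was the mean absolute difference of log2(TPM + 1) after each gene was centred on its own mean, over 11326 other genes, and it was 0.10 for this pair. Next to Mt1 came Hp, the acute-phase gene of haptoglobin (0.29), and Ddit3 (0.31), and next to Mt2 came Hp (0.27) and Tmem39a (0.28). Nearest to Slc39a14 were Pim1 (0.13), the fibrinogen gene Fgb (0.15) and Stat3 (0.16), while Mt1 had rank 222 in that order (0.38). For Slc30a10 they were the ZIP gene Slc39a10 (0.13), Srsf3 (0.13) and Nlrp12 (0.15). Slc39a2 had no neighbour as close, with Serpinb8 (0.36), Pm20d1 (0.41) and Lrtm1 (0.42) at the front. Serpinb8 was at 3.98, 9.41 and 9.04 TPM in WT saline livers and at 1.42 to 1.80 TPM in those of KO mice. After ConA WT livers had 0.28 to 0.83 TPM and KO livers 0.71 to 1.13 TPM. It shared the low first WT saline liver and the low KO saline livers with Slc39a2. For Slc30a1 the nearest were Spopl (0.089), Fxr1 (0.10) and Dnajb6 (0.10), and for Slc39a4 Zmynd15 (0.13), Smo (0.14) and Dtx3 (0.15). These values describe likeness among the same 14 livers, which share their 4 groups, and small values are easily reached by genes that change little.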

How the data were processed

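RNA-seq libraries of 14 mouse livers, 1 per mouse, were analysed. The authors deposited TPM values per gene, 1 table per library. The submitters' processing notes name Bowtie2, RSEM 1.3.1 and GRCm38.p6, whereas the study's methods name STAR and HTSeq, so the aligner behind the values is not settled. TPM keeps no read number, so depth is unknown. Groups came from the labels. Each comparison was fitted with limma (3.58.1, R 4.3.3, trend) on log2(TPM + 1) of its own libraries, for genes at 1 TPM or more in as many libraries as the smaller group holds, with Benjamini-Hochberg adjustment over all genes tested and a threshold of 0.05. The interaction used all 14 libraries. Genes below the filter got a two-sided exact permutation test (SciPy 1.17.1). The fit was tested on simulated data. The members and gene lists were chosen with earlier results of these data known. Of each list, at most 4 called genes with the largest log2 change were named, beside some marked as named after their values were seen. Same-numbered replicates were not treated as pairs. The analysis was repeated with a pseudocount of 0.1, with the filter set to 5 TPM or dropped, and with rescaled libraries, all 14 libraries in the fit, robust moderation, a replicate block, WT saline replicates 2 and 3 averaged, and libraries left out. Alternatives for the exact tests of Slc39a2 were chosen after seeing the data.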

Additional observations from a re-analysis of the deposited data

Results flagged for a closer look

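Slc39a4 had 26.3 TPM in WT ConA replicate 4, far from the other 3 livers of the group (40.7 to 43.0 TPM) by Dixon's test at the 95% level. Of 14 groups of 4 livers tested for the 7 genes, this was 1, and chance alone gives about 1 in 20. The ConA response of Slc39a2 differed between the genotypes by the interaction term, which was 2.34 on the log2 scale (adjusted p = 0.00899). Every ConA liver was at 0.38 TPM or below, so this term mostly restates the saline difference (-2.51) with its sign turned. The call of that saline difference was lost with WT saline replicates 2 and 3 averaged. Over the alternatives in which the interaction could be tested, its adjusted p ran from 1.87e-05, without WT saline replicate 1, to 0.0359, with that pair averaged.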

How the results depend on the processing

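The count of the 7 genes called was 5 in WT ConA against saline and 6 in KO ConA against saline, and leaving out 1 library gave 5 to 5 and 4 to 6. For KO against WT saline the 3 calls became 1 with all 14 libraries in the fit and 0 with WT saline replicates 2 and 3 averaged. These settings called 3.17% and 0.459% of all genes. The count ran from 0 to 4 when 1 library was left out. It was 0 without WT saline replicate 2 or 3, where 0.477% and 0.422% of all genes were called. KO against WT with ConA stayed at 0 in every alternative run. The 1 interaction call became 0 with the filter at 5 TPM, where Slc39a2 was not tested. It became 2 without both ConA libraries numbered 3, where 14.1% of all genes were called. The count ran from 1 to 2 with 1 library left out. The labels do not say that a replicate number marks a shared batch, and in no comparison did every same-numbered pair correlate above 0.1 in its deviations, so the numbers were not taken as pairs. The correlations were -0.00828, 0.127, 0.407 and 0.116 between KO and WT ConA livers, 0.344, 0.236 and -0.00236 between KO and WT saline livers, -0.0507, 0.152 and -0.198 within WT and 0.117, -0.0463 and 0.0607 within KO. With the replicate block 4 genes were called in KO ConA against saline, where Slc39a4 (-0.30, adjusted p = 0.167) and Slc30a1 (0.47, adjusted p = 0.0918) were lost, and the other counts were 5, 3, 0 and 1. Of 267 fold changes under the other alternatives 252 kept their direction and side of the threshold, 11 lost and 3 gained the call and 1 reversed (the Mt1 interaction, -0.091 after rescaling). Of 279 with 1 library left out, 245 kept both, 19 lost and 2 gained the call and 13 reversed. Reversals fell on values not called in the main fit. In KO against WT saline they were Mt1 (-0.63 to 0.24) and Mt2 (-0.42 to 0.45). The Mt2 value of 0.45, without KO saline replicate 3, was itself called. In KO against WT ConA they were Slc39a4 (-0.25 to 0.012) and Slc30a1 (-0.058 to 0.35). In the interaction they were Mt1 (-0.52 to 0.36), Mt2 (-0.63 to 0.24) and Slc30a10 (-0.015 to 0.23). The difference of Slc39a2 in KO ConA against saline ran from -0.79 to -0.55 and in KO against WT ConA from -0.22 to -0.12 with 1 library left out. Causes were not tested. With TPM alone, the counting error of levels under 1 TPM is unknown.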
